A study of Oryza sativa with 12 samples.

Results

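The 35 probe sets described here gave more signal in every *osnadk1* leaf sample than in any WT leaf sample, under drought and under normal growth alike. *osnadk1* is a T-DNA line of rice in which OsNADK1, an NAD kinase gene, is interrupted in its second intron. NAD kinases phosphorylate NAD(H) to NADP(H), the electron carrier of biosynthesis and of the thioredoxin and glutathione systems. The probe sets were chosen on the measured values. The lowest of the 6 *osnadk1* arrays had to lie above the highest of the 6 WT arrays, the mean difference had to be at least 1 log2 unit, and the *osnadk1* mean had to be at least 7 log2 units. Of 57194 probe sets without the manufacturer's controls and foreign marker genes, 122 did not overlap and were higher in *osnadk1* (0.213%), and 132 did not overlap and were lower (0.231%). Among the 122, the difference was under 1 in 37, and it was at least 1 with too low an *osnadk1* mean in 50, which left the 35. Because genotype differences selected these probe sets, they are given below as a description with no test.

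There were 3 arrays for each of *osnadk1* under drought, *osnadk1* under normal growth, WT under drought and WT under normal growth. All plants were *japonica* rice of cv. Dongjin, 2.5 months old, and the youngest fully expanded leaves were sampled on day 15 without water, at 8.5% soil moisture, or on day 0, at 47.3%. Mutant and WT plants shared pots in pairs, and the labels mark all WT arrays as re-analysed. The mutant is a single insertion line, so the lost gene and anything else the line carries cannot be told apart. Drought and the 15 days that passed cannot be told apart either.

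OsNADK1 itself read 3.96 to 5.65 log2 units on *osnadk1* arrays and 9.43 to 10.27 on WT arrays, as labelled. Of 8 probe sets for leaf markers (Rubisco small subunit and chlorophyll a-b binding proteins), 6 were above their own array's median on all 12 arrays, while of 9 for seed storage proteins 5 were below it on all 12 and 3, all for glutelins, were above it on all 12. Both root nitrate transporter probe sets lay above the median on some arrays only, and 2 of 4 for floral MADS-box genes lay above it on all 12. In bulk leaf RNA, more cells of one type and more RNA per cell cannot be told apart. Prefixes of the array descriptions split the samples into label sets, here A and B. Set A holds 4 *osnadk1* and 2 WT arrays. Its 3 arrays of normal growth (*osnadk1* replicates 1 and 2, WT replicate 1) stood apart on the first principal component, at -140.6 to -121.2, against 26.7 to 66.5 for the other 9. Without those 3 arrays the same rule found 47 probe sets, 32 of them among the 35. The part of the label sets in the genotype differences was not tested. The rule forces a difference above 0 in both sets, and its median over the 35 was 2.83 in set A and 2.52 in set B under drought, and 2.86 in set A and 2.96 in set B under normal growth. In LOC4342776 it was 2.14 in set A and 0.084 in set B under normal growth.

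The size of the differences ran from 1.03 to 9.11 log2 units, with a median of 2.86, against -0.01 over all probe sets. There were 10 over 4 units, 13 between 2 and 4, and 12 between 1 and 2. In *osnadk1* the mean level was 10 or more in 14 probe sets, 8 to 10 in 12 and under 8 in 9. The WT level separates them further. In 8 probe sets every WT array lay below its own array's median, which stands in here for background, in 17 no WT array did, and in 10 some did. For the 8, the differences in log2 units include WT signals of no dependable level, and a lower bound of the fold is given with them. None of the *osnadk1* arrays lay below its median in any of the 35. The space between the lowest *osnadk1* array and the highest WT array was over 1 unit in 18 probe sets and under 0.3 in 10. Averaged over the 35, *osnadk1* arrays read 9.14 to 9.95 and WT arrays 6.03 to 6.39. The SD over 6 arrays ran from 0.11 to 1.90 in *osnadk1* (median 0.57) and from 0.19 to 2.18 in WT (median 0.56).

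**Figure D1:**
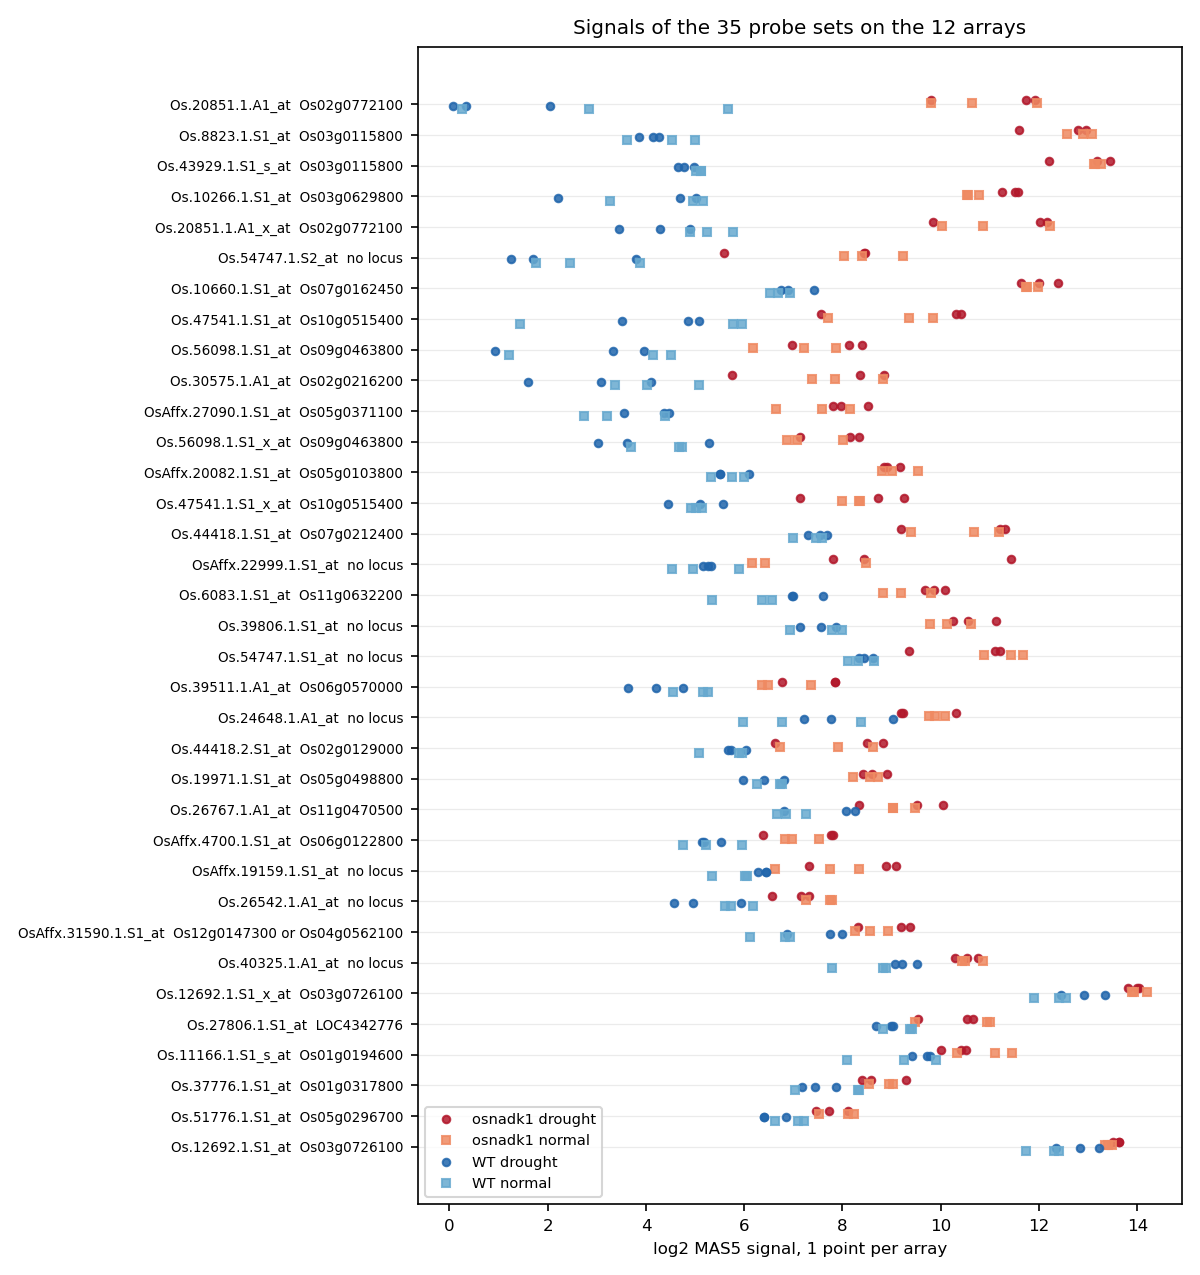
Signal of each of the 35 probe sets (rows, largest mean difference at the top, with the manufacturer's probe set ID and the locus where one is given) on each array, in log2 MAS5 signal. Every *osnadk1* point lies right of every WT point of its row, as the rule demands, by 0.06 to 7.08 log2 units at the nearest points.

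Loci and descriptions come from the study's lists of differentially expressed probe sets, which hold 31 of the 35 and give a locus for 26. There were 16 probe sets annotated as expressed, hypothetical or conserved hypothetical proteins, 1 of them also as an amino acid transporter. Another 7 had no description here, 4 of which are outside those lists and are called unannotated below unless the reference names a gene. Transposons and retrotransposons, mobile elements that the plant normally keeps silent by DNA and histone methylation, made up 6. The others were 2 probe sets of a tubulin gene and 1 each for a receptor-like kinase, a zinc finger protein, a glutaredoxin and a monoglyceride lipase. The median difference was 3.86 in the expressed and hypothetical proteins, 2.53 in those with no description and 2.30 in the mobile elements. In the reference annotation used here (RefSeq, assembly ASM3414082v1), 25.7% of the 35 matched 1 gene, against 58.2% of the 32064 probe sets whose signal reached the median of its array on 3 arrays or more. All 35 pass that filter, but only 21 would pass it on WT arrays alone.

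Os03g0115800 (LOC4331398 on chromosome 3, an expressed protein with a domain of unknown function) stood farthest apart, and it did so on both of its probe sets. On the first the log2 signals were 12.79, 12.96 and 11.60 under drought and 12.90, 13.07 and 12.58 under normal growth in *osnadk1*, against 3.85, 4.26 and 4.14 under drought and 4.52, 3.62 and 5.01 under normal growth in WT. On the second, whose suffix marks probes shared by several transcripts, they were 13.18, 13.45 and 12.20 under drought and 13.14, 13.26 and 13.12 under normal growth in *osnadk1*, against 4.65, 4.78 and 4.97 under drought and 5.12, 5.12 and 5.01 under normal growth in WT. *osnadk1* drought replicate 3 was the lowest mutant array on both, and it was still over 6 units above every WT array. The mean differences were 8.42 and 8.11 log2 units, the second with WT below the array median on 5 of 6 arrays. Since WT lay below the array medians throughout on the first of these, it was at least 165-fold higher in *osnadk1* (against the WT array medians).

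Os02g0772100, a conserved hypothetical protein, had the largest mean difference of all. On one of its probe sets the signals were 11.74, 11.92 and 9.80 under drought and 11.97, 9.80 and 10.64 under normal growth in *osnadk1*, against 0.34, 0.066 and 2.04 under drought and 2.84, 0.25 and 5.68 under normal growth in WT. WT scattered over more than 5 units here and reached its own median on 1 array, so the difference of 9.11 rests on signals near the bottom of the scale. The partner, whose suffix marks probes that may cross-hybridise, gave 12.02, 12.15 and 9.84 under drought and 12.21, 10.03 and 10.87 under normal growth in *osnadk1*, against 4.90, 3.46 and 4.28 under drought and 5.24, 4.89 and 5.78 under normal growth in WT, a difference of 6.43. WT lay below the array median on 4 of 6 arrays of the partner. On both, *osnadk1* drought replicate 3 and normal replicate 2 were the lowest mutant arrays.

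The probe set at Os03g0629800 in the study's annotation, an expressed protein, measured 11.51, 11.57 and 11.24 under drought and 10.54, 10.55 and 10.79 under normal growth in *osnadk1*, against 2.21, 5.02 and 4.69 under drought and 4.95, 3.27 and 5.16 under normal growth in WT. All mutant arrays under drought lay above all mutant arrays under normal growth. The difference was 6.82 (at least 53.7-fold, since WT stayed below the array medians). That locus is on chromosome 3, while the reference pairs the probe set with LOC4340325 on chromosome 6, so its gene is uncertain. The other probe set of LOC4340325 overlapped between genotypes, at 7.10 to 8.14 in *osnadk1* and 7.53 to 8.05 in WT.

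Os07g0162450, an expressed protein, differed evenly across arrays. Its log2 signals were 11.64, 11.99 and 12.38 under drought and 11.97, 11.75 and 11.74 under normal growth in *osnadk1*, against 6.88, 7.42 and 6.75 under drought and 6.52, 6.94 and 6.68 under normal growth in WT. WT was above its median on every array, so this is a difference between measured signals, 11.91 ± 0.27 in *osnadk1* and 6.86 ± 0.31 in WT (mean ± SD, n = 6 each), or 33.1-fold.

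A transcript with no locus or description, here the unplaced transcript, was measured by a pair of probe sets, with mean differences of 5.55 (at least 6.66-fold, since WT stayed below the array medians) and 2.53. Its first probe set (suffix S2) read 8.46, 8.44 and 5.58 under drought and 8.41, 8.03 and 9.23 under normal growth in *osnadk1*, against 1.71, 1.26 and 3.80 under drought and 2.45, 1.76 and 3.87 under normal growth in WT. Its second (suffix S1) read 11.20, 11.11 and 9.35 under drought and 11.68, 10.88 and 11.44 under normal growth in *osnadk1*, against 8.33, 8.43 and 8.63 under drought and 8.11, 8.32 and 8.64 under normal growth in WT. In both, *osnadk1* drought replicate 3 was the lowest mutant array by a wide margin, and the WT signals of the second stayed within 8.11 to 8.64.

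Os09g0463800, a conserved hypothetical protein, also had a pair of probe sets, and the first gave 8.40, 8.14 and 6.97 under drought and 7.86, 6.17 and 7.22 under normal growth in *osnadk1*, against 3.96, 3.33 and 0.93 under drought and 4.14, 4.50 and 1.21 under normal growth in WT. The second, whose suffix marks probes that may cross-hybridise, spanned 6.86 to 8.33 (median 7.57) in *osnadk1* and 3.02 to 5.27 (median 4.18) in WT. WT lay below the array medians on all 6 arrays in both, and the differences were 4.45 (at least 4.51-fold) and 3.42 (at least 4.94-fold). Os02g0216200, a hypothetical protein, gave 8.35, 8.85 and 5.75 under drought and 7.85, 7.37 and 8.83 under normal growth in *osnadk1*, against 4.10, 1.61 and 3.08 under drought and 4.03, 5.08 and 3.38 under normal growth in WT. The lowest mutant array, drought replicate 3, was only 0.67 above the highest WT array there, and the *osnadk1* mean was at least 5.84-fold above WT, which lay below the array medians throughout.

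The 6 mobile element probe sets belonged to 4 annotated loci and an element with no locus. Os10g0515400, an unclassified transposon protein, was measured by a pair of them. On the first the signals were 10.41, 10.31 and 7.57 under drought and 9.83, 7.70 and 9.35 under normal growth in *osnadk1*, against 4.85, 5.08 and 3.51 under drought and 1.43, 5.76 and 5.95 under normal growth in WT. The second gave 9.25, 8.72 and 7.14 under drought and 8.35, 7.99 and 8.34 under normal growth in *osnadk1*, against 4.45, 5.56 and 5.09 under drought and 4.91, 5.14 and 5.02 under normal growth in WT. The differences were 4.76 and 3.27, the second from a probe set whose suffix marks probes that may cross-hybridise. They are set largely against background signals, as WT lay below the array median on 4 of 6 and 5 of 6 arrays. A related probe set of the same transcript cluster stayed near the bottom of the scale in both genotypes. It gave 1.88 to 3.40 in *osnadk1* and 1.43 to 2.77 in WT.

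The retrotransposon protein Os06g0570000 was at least 3.54-fold higher in *osnadk1*. It read 6.77, 7.84 and 7.86 under drought and 6.37, 6.48 and 7.35 under normal growth in *osnadk1*, against 4.20, 4.76 and 3.64 under drought and 4.56, 5.17 and 5.26 under normal growth in WT. WT lay below the array medians throughout, so the differences of 3.29 under drought and 1.74 under normal growth are set against background signals, and the *osnadk1* mean of 7.11 was the lowest of all 35. Os05g0498800, another transposon protein, was even, at 8.21 to 8.90 (median 8.58) in *osnadk1* and 5.97 to 6.81 (median 6.56) in WT. A centromere-specific retrotransposon with no locus spanned 6.57 to 7.79 (median 7.29) in *osnadk1* and 4.58 to 6.19 (median 5.67) in WT. These elements are the repeats that crowd plant centromeres, and whether the signal came from one genomic copy or several was not tested. Os05g0296700, a retrotransposon of the LINE type, which copies itself through RNA with no long terminal repeats, spanned 7.47 to 8.23 (median 7.92) in *osnadk1* and 6.39 to 7.22 (median 6.74) in WT. Its difference of 1.10 was among the smallest that the rule admits.

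Regulatory and signalling proteins were few. Os11g0470500 is annotated as a DUF26 kinase, one of the cysteine-rich receptor-like kinases that in Arabidopsis take part in responses to pathogens and reactive oxygen. It read 9.52, 10.05 and 8.33 under drought and 9.49, 9.02 and 9.03 under normal growth in *osnadk1*, against 8.25, 8.07 and 6.80 under drought and 7.26, 6.68 and 6.86 under normal growth in WT. The space between genotypes was 0.07 here, and WT under drought was high on replicates 1 and 2. A probe set of another locus, Os10g0483400, fell just outside the rule, with means of 7.95 in *osnadk1* and 5.89 in WT and an overlap of 0.11. Os05g0371100 is annotated as a CW-type zinc finger protein, a class whose domain binds methylated lysine on histone H3 tails. It gave 7.82, 8.53 and 7.97 under drought and 7.59, 6.65 and 8.15 under normal growth in *osnadk1*, against 4.37, 4.47 and 3.55 under drought and 4.39, 2.74 and 3.22 under normal growth in WT. WT was below its medians on all arrays, and the difference was 3.999, at least 5.65-fold.

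The metabolic and cytoskeletal genes were among those that differed least. Glutaredoxins use glutathione to reduce disulfides or glutathionylated proteins. The glutaredoxin Os01g0194600 (LOC4327316, chromosome 1) gave 9.996, 10.52 and 10.41 under drought and 11.11, 11.46 and 10.34 under normal growth in *osnadk1*, against 9.78, 9.42 and 9.72 under drought and 9.90, 9.25 and 8.08 under normal growth in WT. The suffix of its probe set marks probes shared by several transcripts. The gap was 0.09, and the genotype difference was 0.67 under drought and 1.89 under normal growth. The putative monoglyceride lipase Os01g0317800 (LOC4327269, chromosome 1), an enzyme that frees fatty acids from monoacylglycerols, gave 8.57, 9.30 and 8.39 under drought and 8.94, 9.03 and 8.54 under normal growth in *osnadk1*, against 7.18, 7.86 and 7.44 under drought and 7.03, 8.31 and 8.33 under normal growth in WT. Tubulins are the subunits of microtubules, and Os03g0726100 (LOC4333966, chromosome 3) was bright in both genotypes. Its first probe set read 13.50, 13.62 and 13.63 under drought and 13.35, 13.48 and 13.41 under normal growth in *osnadk1*, against 12.34, 12.83 and 13.22 under drought and 11.73, 12.40 and 12.31 under normal growth in WT. The second, which may cross-hybridise with related tubulins, read 13.81, 13.99 and 14.03 under drought and 13.93, 14.20 and 13.89 under normal growth in *osnadk1*, against 12.44, 12.91 and 13.35 under drought and 11.90, 12.55 and 12.40 under normal growth in WT. Mutant arrays lay within 0.28 and 0.39 units of each other on these, while WT arrays spread over 1.48 and 1.45 units and came closest to the mutant under drought.

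Among the other probe sets, Os07g0212400 (LOC4342716 on chromosome 7) and Os02g0129000, both expressed proteins, have probe sets that share a transcript cluster. The first gave 11.31, 11.21 and 9.19 under drought and 10.68, 9.39 and 11.18 under normal growth in *osnadk1*, against 7.29, 7.54 and 7.68 under drought and 6.99, 7.57 and 7.46 under normal growth in WT. The second gave 8.82, 8.49 and 6.63 under drought and 7.90, 6.72 and 8.62 under normal growth in *osnadk1*, against 5.67, 6.04 and 5.73 under drought and 5.89, 5.07 and 5.95 under normal growth in WT. Both had their lowest mutant signals on drought replicate 3 and normal replicate 2. Os11g0632200, an expressed protein, gave 9.67, 9.86 and 10.09 under drought and 8.83, 9.19 and 9.79 under normal growth in *osnadk1*, against 6.98, 7.003 and 7.60 under drought and 5.34, 6.37 and 6.56 under normal growth in WT. The other probe set of that locus was also separated but under the level the rule asks for, with means of 6.89 in *osnadk1* and 4.44 in WT. A probe set with no annotation gave 8.43, 7.82 and 11.43 under drought and 8.47, 6.42 and 6.16 under normal growth in *osnadk1*, against 5.33, 5.17 and 5.26 under drought and 4.53, 4.96 and 5.89 under normal growth in WT. One array, *osnadk1* drought replicate 3, was nearly 3 units above every other array on it.

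Another probe set with no description, a single one, spanned 9.78 to 11.12 (median 10.40) in *osnadk1* and 6.94 to 7.99 (median 7.67) in WT. An expressed protein with no locus spanned 10.29 to 10.87 (median 10.51) in *osnadk1* and 7.79 to 9.52 (median 8.98) in WT. Every WT array of both was above its own median. A probe set given as Os12g0147300, an expressed protein, or as Os04g0562100, an amino acid transporter, spanned 8.25 to 9.37 (median 8.75) in *osnadk1* and 6.12 to 7.98 (median 6.90) in WT. A second probe set of the transporter locus averaged 9.27 in *osnadk1* and 8.22 in WT and overlapped. LOC4342776 (chromosome 7) spanned 9.48 to 11.01 (median 10.60) in *osnadk1* and 8.68 to 9.42 (median 9.005) in WT, the narrowest gap of the 35 at 0.06. Os06g0122800, an expressed protein, spanned 6.39 to 7.81 (median 7.25) in *osnadk1* and 4.75 to 5.96 (median 5.20) in WT. Os05g0103800, an expressed protein, differed by 3.35, and 2 further probe sets with no annotation differed by 1.90 and 2.21.

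Several of these values lie close to the limits of the rule. Just inside the difference of 1 were the first tubulin probe set, Os05g0296700 and Os01g0317800, at 1.03, 1.10 and 1.10. Just outside it were LOC4345865, Os09g0482550 and a probe set with no gene, at 0.97, 0.95 and 0.93. The *osnadk1* means just inside the level of 7 were 7.11 (Os06g0570000), 7.21 (Os06g0122800) and 7.30 (the centromere-specific retrotransposon). Those just outside were 6.89 (the other probe set of Os11g0632200), 6.73 (Os03g0115700) and 6.67 (a probe set with no gene). A further 139 probe sets met the difference and the level but overlapped, by as little as 0.04 in Os10g0419400 and 0.07 in Os04g0482300.

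The genotype difference of the 35 had a median of 3.07 under drought and 2.86 under normal growth. It was larger under drought in 21 probe sets and larger under normal growth in 14. The treatments changed it by under 0.5 in 17 and by over 1 in 8. Its median absolute change was 0.50 over the 35, beside 0.32 over all probe sets tested. The rule asks for separation in both treatments, which limits how far the differences can part. These counts include the 8 probe sets with WT below the array medians. The first probe set of Os02g0772100 differed by 10.34 under drought and 7.88 under normal growth, but WT was below its median on 5 of 6 arrays there, and drought minus normal growth was 0.35 in *osnadk1* and -2.11 in WT. The unannotated probe set with the high drought replicate 3 differed by 3.97 under drought and 1.89 under normal growth. On the other side, the unannotated probe set with a mean difference of 2.21 had 1.57 under drought and 2.86 under normal growth.

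**Figure D2:**
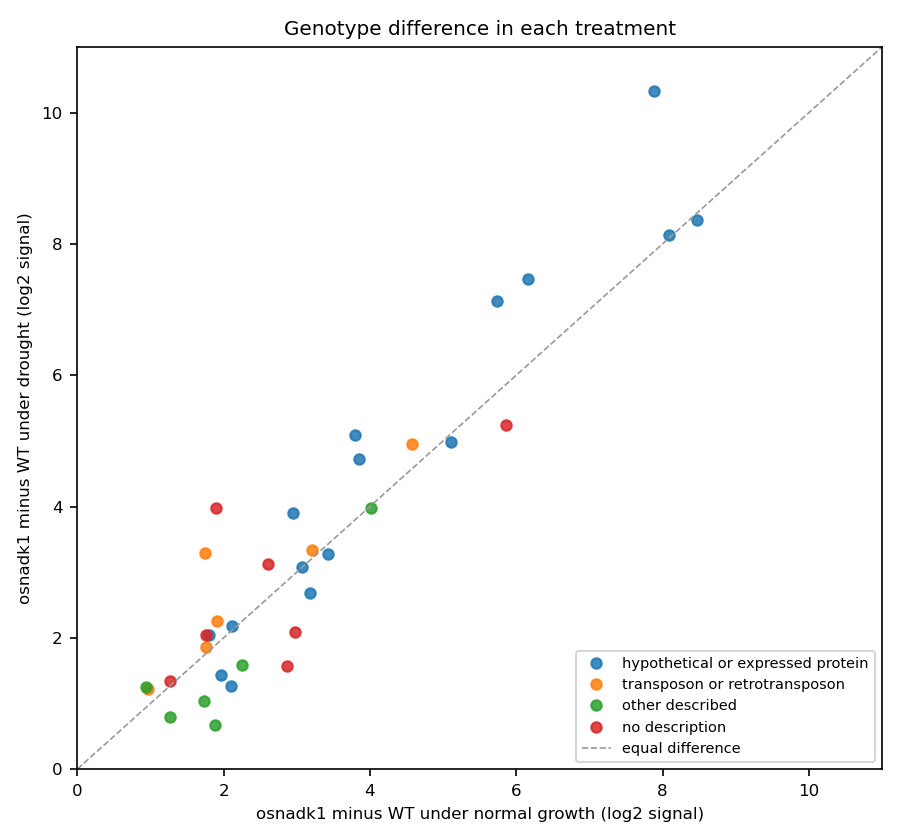
Mean *osnadk1* minus WT difference of each of the 35 probe sets under drought (vertical axis) and under normal growth (horizontal axis), in log2 signal, 3 arrays per mean, coloured by annotation. There are 21 points above the dashed line of equal differences and 14 below it.

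Drought was compared with normal growth in limma over 32064 probe sets. The rule did not use this contrast, but its limits run over both treatments and so favour probe sets with little spread within a genotype. Of the 35, 21 reached the array median on 3 WT arrays or more, and the other 14 entered the test only through *osnadk1*, so that their values in WT, in both genotypes together and in the interaction include background signals. None of the 35 passed an adjusted p of 0.05, higher or lower, for drought against normal growth in both genotypes together, in *osnadk1*, in WT, or for the interaction of genotype and drought. The background was low as well. Over all probe sets tested, 0.178% were called higher and 0.125% lower in both genotypes together, 0.0% either way in *osnadk1*, 0.00624% higher and 0.0% lower in WT, and 0.0% either way in the interaction. At an unadjusted p under 0.05 in limma, 3 of the 35 were higher and 1 lower in both genotypes together (11.2% and 7.01% of all), 1 higher in *osnadk1* (7.29%), 5 higher in WT (5.67%) and 1 higher in the interaction (2.34%), with none lower in these (5.06%, 4.1% and 1.62% of all). All of them were among the 21 except that of the interaction. The median drought effect in *osnadk1* was 0.16 over the 35, beside 0.09 over all probe sets tested. In WT it was 0.01 over the 35, which includes background signals. Over the 21 it was 0.12 in *osnadk1*, 0.21 in both genotypes together and 0.17 in WT. Over all probe sets tested it was 0.05 in both genotypes together and 0.02 in WT. Replicates are called biological in the labels, with no word on the plants behind each, so the p-values measure only how far these arrays spread.

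Os11g0632200 came closest to a drought response. Its signal was higher under drought by 0.85 ± 0.25 log2 units (± SE, limma adjusted p = 0.149) in both genotypes together, by 0.60 ± 0.35 in *osnadk1* (limma adjusted p = 0.465) and by 1.11 ± 0.35 in WT (limma adjusted p = 0.313). In WT all 3 drought arrays lay above all 3 arrays of normal growth, and in *osnadk1* 1 drought array did not clear the highest array of normal growth. With the label set as a block, the same effect was 0.85 ± 0.17 with a limma adjusted p of 0.0250, where 1465 probe sets were called in all. In set A alone, with 1 WT array per treatment, it was 1.20 ± 0.18 (limma adjusted p = 0.00342), and in set B alone 0.57 ± 0.22 (limma adjusted p = 0.214). Without *osnadk1* normal replicate 3 the limma adjusted p was 0.0333, where 3454 probe sets were called in all. The main fit called 97, so both of these passes came with many more calls over all probe sets (block and array left out). Over the settings tried, the limma adjusted p was 0.397 at its highest.

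The other unadjusted effects in both genotypes together were small. The first tubulin probe set was 0.41 ± 0.15 higher under drought (limma adjusted p = 0.208), Os12g0147300 or Os04g0562100 0.65 ± 0.26 higher (limma adjusted p = 0.237), and that of the centromere-specific retrotransposon was -0.64 ± 0.27 (limma adjusted p = 0.248). In WT the tubulin probe sets were 0.65 ± 0.22 and 0.62 ± 0.23 higher under drought (limma adjusted p = 0.339 and 0.386), and the expressed protein with no locus 0.77 ± 0.28 (limma adjusted p = 0.385). In *osnadk1* the largest effect was that of the unannotated probe set with the high drought replicate 3, 2.21 ± 0.87 (limma adjusted p = 0.402), and in set A, without that array, it was 0.68 ± 0.65 (limma adjusted p = 0.507). The interaction with an unadjusted p under 0.05 was that of Os06g0570000, 1.55 ± 0.63 (limma unadjusted p = 0.0327, adjusted p = 0.975), where the drought effect was 0.76 in *osnadk1* and -0.80 in WT. It is among the 14, and the WT value is a difference between background signals.

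**Figure D3:**
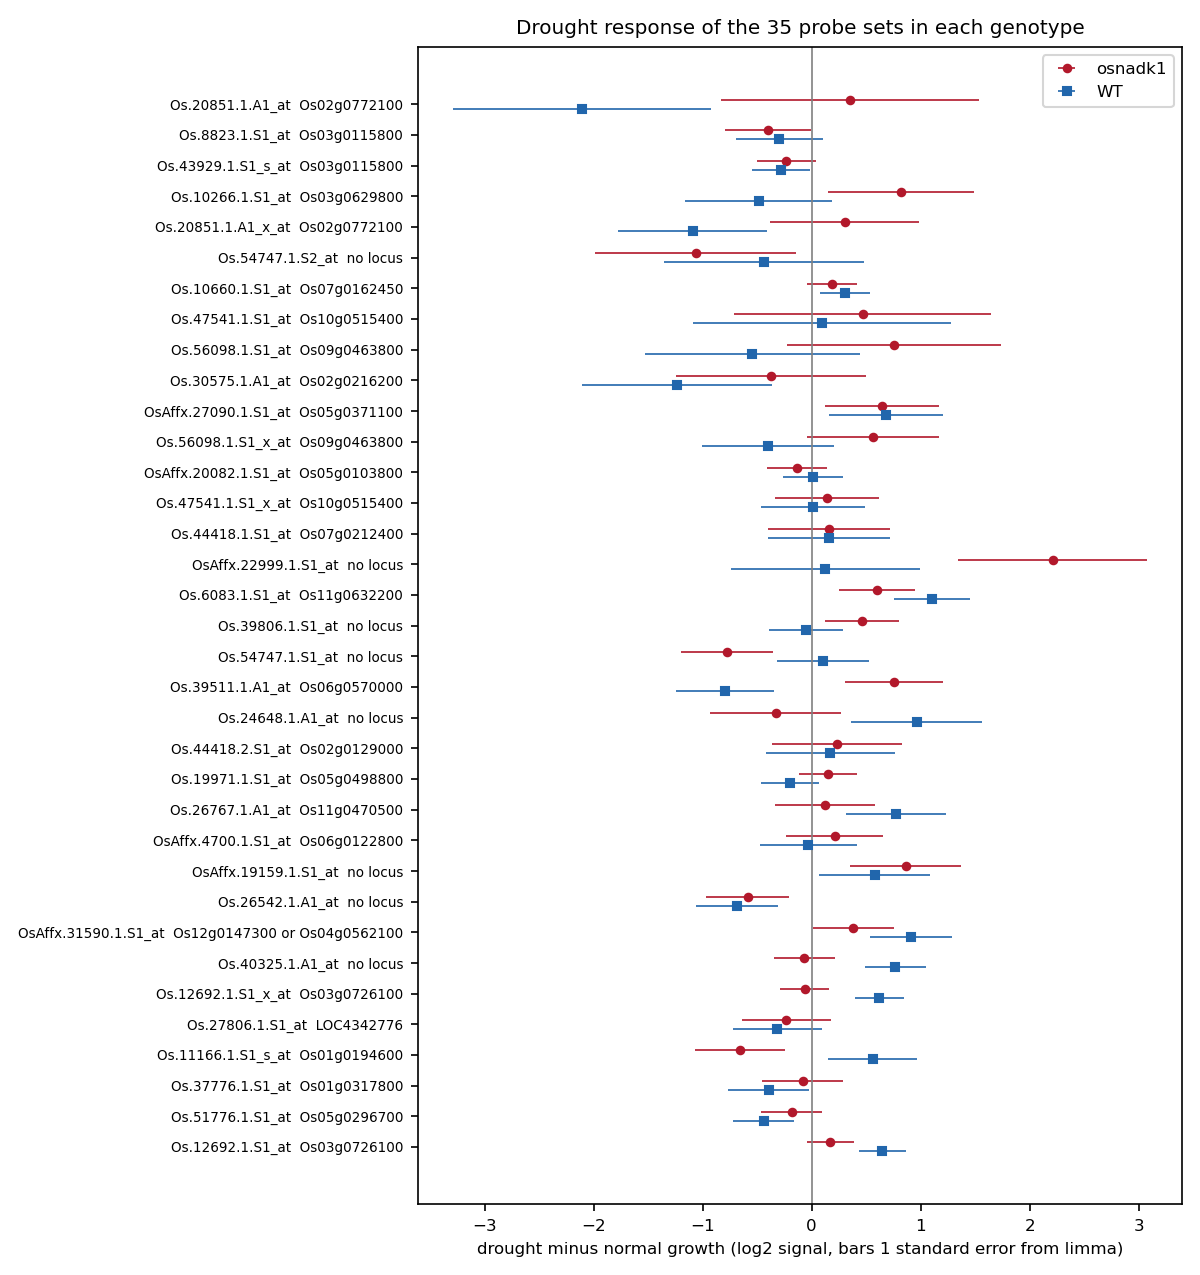
Drought minus normal growth of each of the 35 probe sets in *osnadk1* (circles) and in WT (squares), in log2 signal with 1 standard error from limma. The effects run from -1.06 to 2.21 in *osnadk1* and from -2.11 to 1.11 in WT, and none passed an adjusted p of 0.05.

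With each label set fitted alone, 10 of the 35 (28.6%) were called in set A and 3 (8.57%) in set B for both genotypes together, near the 27.4% and 5.11% of all probe sets tested. None was called in both sets, beside 2.8% of all. WT in set A and *osnadk1* in set B have 1 array per treatment, so these fits take the spread from the other genotype's arrays. The unannotated probe set with a mean difference of 2.21 gave -0.89 ± 0.13 in set A (limma adjusted p = 0.00341) and 1.14 ± 0.39 in set B (limma adjusted p = 0.170).

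A shared pattern ran through part of the 35 within the mutant. It was noticed after the values were seen and was not tested. On 13 probe sets of 9 transcript clusters, *osnadk1* drought replicate 3 and normal replicate 2 were both below the other 4 *osnadk1* arrays, while this held for 5.71% of the 32064 probe sets. On 5 of the 13 the step was over 0.5 log2 units, against 0.683% of the 32064. These were both of Os02g0772100, the first of Os10g0515400, and those of Os07g0212400 and Os02g0129000, which share a cluster. Over the 13, the mean of that pair of arrays minus that of the other 4 ran from -2.34 to -0.73, with a median of -1.76. On Os07g0212400 the pair averaged 9.29 and the other 4 averaged 11.09, where all WT arrays lay within 0.69 units of each other. On the first probe set of Os10g0515400 the pair averaged 7.63 and the other 4 averaged 9.98. The 13 include Os02g0772100, the unplaced transcript, Os10g0515400, Os02g0216200 and, by a step of only 0.01, the DUF26 kinase. They do not include Os03g0115800 or Os07g0162450. These 2 arrays differ in treatment, in label set and in replicate number.

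**Figure D4:**
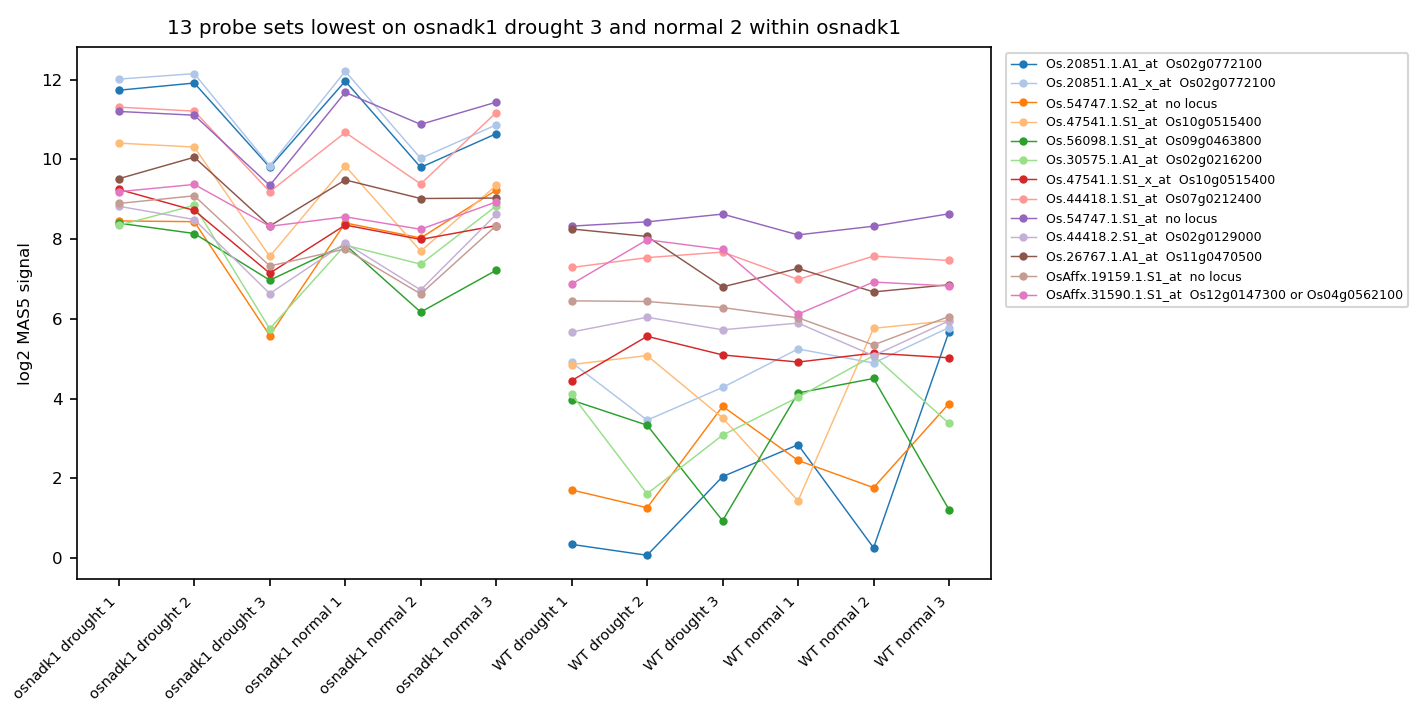
Log2 signal of the 13 probe sets (lines) on each of the 12 arrays, with *osnadk1* arrays on the left and WT arrays on the right; lines join arrays of a genotype and are no time course. Drought replicate 3 and normal replicate 2 are the lowest mutant arrays in each line, and their mean minus that of the other 4 runs from -2.34 to -0.73.

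In the reference, the 9 mapped probe sets are 7 genes. There were 4 probe sets of 2 genes on chromosome 3, which holds 13.8% of the tested probe sets with a gene, 2 on chromosome 1 (15.3%), 2 on chromosome 7 (7.68%) and 1 on chromosome 6 (7.88%). By the study's loci, which name further genes, chromosome 3 held 5 probe sets, chromosomes 2 and 5 held 4 each, chromosomes 1, 6, 7, 9, 10 and 11 held 2 each, and chromosome 8 held none. The probe set with a pair of loci falls on chromosome 12 or 4. Both annotations give a chromosome for 8 probe sets, and it is the same one for 7, that at Os03g0629800 being the exception. The 2 genes on chromosome 1, which also carries OsNADK1, stand at -4041 and -3294 from it in the order of annotated genes.

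The genes near the mapped ones overlapped between genotypes, with 2 exceptions. Within 10 annotated genes on either side of the 7 genes there were 88 tested probe sets of 69 genes, with a median difference of -0.003. One was separated and higher in *osnadk1* and one was separated and lower, beside 0.213% and 0.231% of all 57194 probe sets. Those shares include probe sets that were not tested, unlike the 88. The higher one was Os03g0115700 (LOC4331397), the gene directly beside Os03g0115800, with means of 6.73 in *osnadk1* and 5.10 in WT. It missed the rule only by its level. The lower one was 4 genes from LOC4340325, with means of 9.15 in *osnadk1* and 9.68 in WT. Its genotypes were only 0.015 log2 units apart at the nearest arrays, and LOC4340325 is an uncertain match of its probe set.

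**Figure D5:**
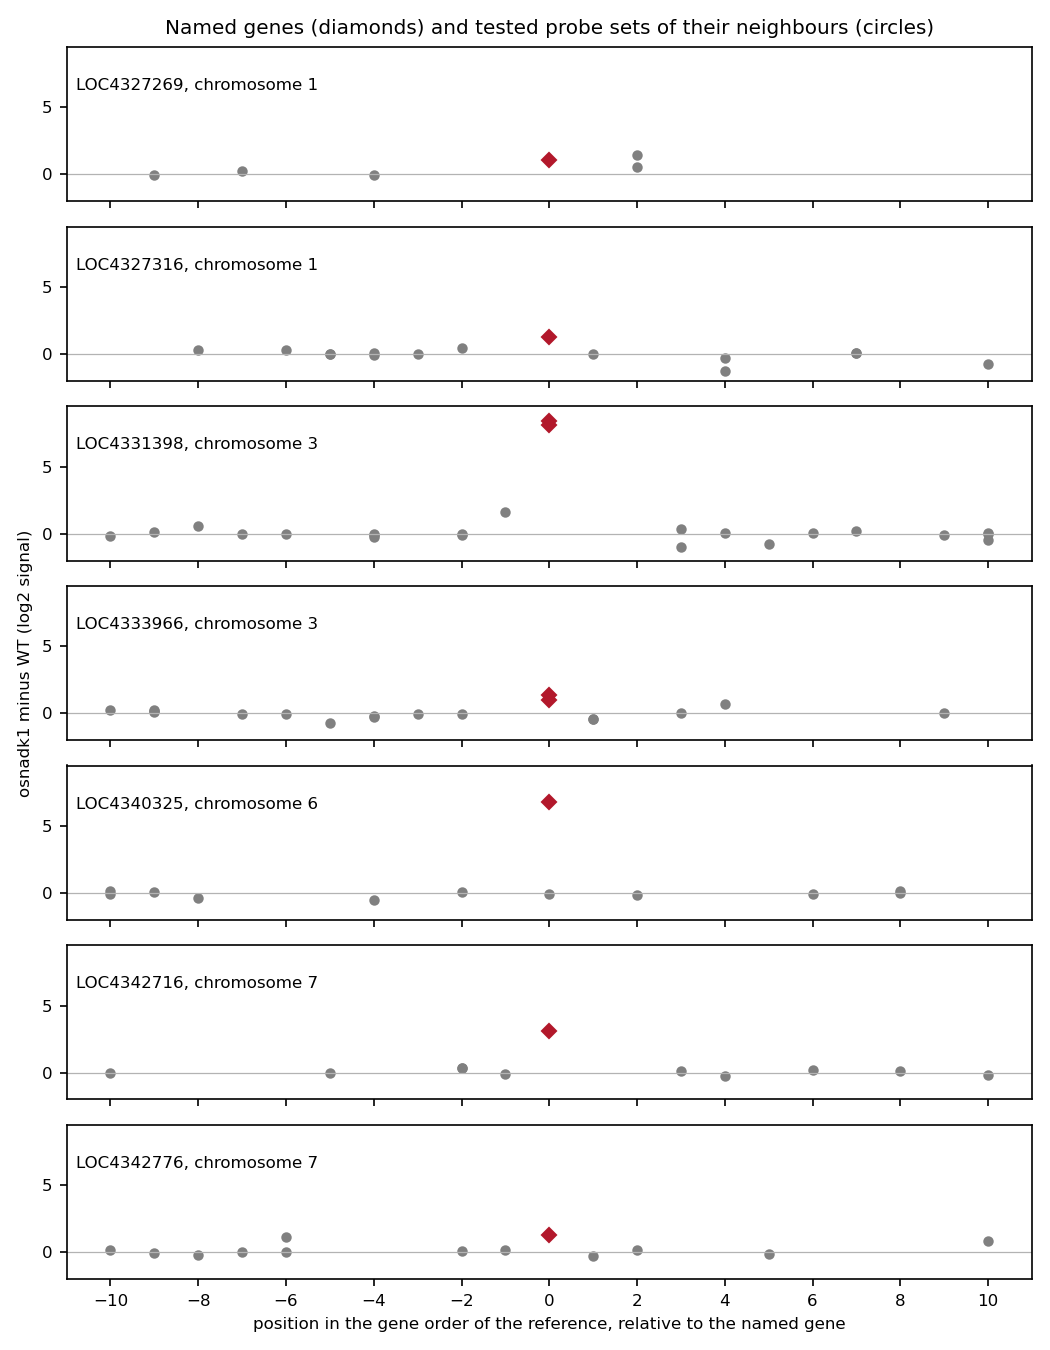
Mean *osnadk1* minus WT difference, in log2 signal over 6 arrays each, of tested probe sets within 10 places of each of the 7 mapped genes in the reference gene order. Diamonds are among the 35 and circles are not; the circle 1 place before LOC4331398 is Os03g0115700, at 1.63.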

How the data were processed

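Total RNA of rice leaves was hybridised to 12 Affymetrix rice genome arrays. Signals were computed by the authors in MAS5, whose version is not given in the sources used here, scaled to one target per array, and deposited as log2 values. Their linear trimmed mean (2% cut on each side) was 499.9 on every array, and array medians were 5.08 to 5.43 log2 units. They were used as deposited. Detection calls were not used here. The rule gave 35 probe sets, chosen, like the lists, with earlier results of these data known. Named probe sets were those with the 10 largest differences, up to 4 of each annotation class, the 3 smallest p-values per drought contrast, those sharing a gene and those beside a limit, and OsNADK1. Some are given by range. Drought contrasts were fitted in limma 3.58.1 (R 4.3.3) on all 12 arrays with a variance trend and Benjamini-Hochberg adjustment. The filter was the array median on 3 arrays. The fits were checked on simulated arrays with no label sets, a check that does not cover the label set differences seen here. Alternatives were scaling, floor, filters, limits, variance trend, blocks, label sets and arrays left out. Locus names and descriptions follow the study's lists of differentially expressed probe sets, and chromosomes and gene order follow RefSeq ASM3414082v1. No coordinates or sequences are given.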

Additional observations from a re-analysis of the deposited data

Results flagged for a closer look

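Of 64 control probe sets for foreign marker genes, which lie outside the rule, 3 separated the genotypes and would otherwise have met it. One averaged 13.28 in *osnadk1* and 2.04 in WT, a difference of 11.24 log2 units. As WT stayed below the array medians, it was at least 254-fold higher in *osnadk1*. Another averaged 10.00 in *osnadk1* and 2.73 in WT, a difference of 7.27, or at least 26.2-fold for the same reason. The last averaged 7.35 in *osnadk1* and 3.25 in WT, a difference of 4.10, with WT below the array median on 5 of 6 arrays, and its 2 lowest mutant arrays were drought replicate 3 and normal replicate 2, both at 6.48. They drew attention as signal in data that the comparisons above do not use, well above the WT level.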

How the results depend on the processing

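The 35 probe sets numbered 35, 34 and 35 under quantile normalization, array median centring and a floor at percentile 25, and 31 of them were kept in all 3 (the exceptions were the DUF26 kinase Os11g0470500, the glutaredoxin Os01g0194600, the first tubulin probe set of Os03g0726100 and an unannotated probe set). Their number moved to 23 with a difference of at least 2, 67 with no minimum difference, 85 with no minimum level, 325 in label set A alone (33 shared) and 64 in label set B alone (29 shared), where fewer arrays have to separate. Leaving out 1 array at a time gave 35 to 50, with 33 to 35 shared. Without the 3 set A arrays of normal growth, an alternative chosen after seeing the data, it was 47 (32 shared). Only replicate 3 then stands for *osnadk1* under normal growth. The median drought effect of the 35 was 0.04 in both genotypes together, 0.05 in *osnadk1* and -0.17 in WT there. Those called for drought numbered 0 in all 4 contrasts, and 0 to 1 with each array left out for both genotypes together. The label set as a block gave 1 for both genotypes together. That fit called 1465 probe sets in all, and the fit without *osnadk1* normal replicate 3 called 3454, against 97 in the main fit. Set A alone gave 10 for both genotypes together, 6 in *osnadk1*, 6 in WT and 1 for the interaction, and set B alone gave 3, 3, 0 and 3 in the same order. WT in set A and *osnadk1* in set B have 1 array per treatment there, assumed to vary like the other genotype. Those groups show no spread of their own, so fits of a single label set do not decide whether the 35 respond to drought. The share called over all probe sets tested also differed between the sets. The cause of these shifts was not tested. Same-numbered arrays correlated from -0.27 to 0.32 in their deviations. Arrays of different numbers were not compared, and some same-numbered arrays differ in label set, so this does not decide whether the numbers pair them. A replicate block, across or within genotypes, left 0 of the 35 in all 4 contrasts. Over all probe sets these fits called 129 and 27 for both genotypes together, and at most 2 in any other contrast. The share of annotation classes over all probe sets was not run, because the reference used here holds no descriptions. With 3 arrays per group, the number of arrays limits the precision, and signals below the array median have no dependable order.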
